A study of Mus musculus with 9 samples.

Results

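The genes described here are those of integrins and of the proteins that join integrins to the cytoskeleton. They were taken by symbol from the gene table on the iGenomes annotation, which holds 17565 genes. Of the 37 genes listed, 36 have a row and 35 passed the filter on low values, at least 0.5 CPM (a read count scaled to library size) in at least 3 libraries. They comprise 10 integrin alpha subunits (9 tested), 7 integrin beta subunits (6 tested), the ligand fibronectin, 16 adaptor, linker or kinase genes and 3 genes of caveolae. Itga8 was too low to be tested, and Itgb8 has no row under that symbol and was not analysed here.

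Poly-A RNA of MS1 cells, an endothelial line from the mouse pancreas, was sequenced in 9 libraries. All groups carry a lentiviral vector of the pCDH family, and the labels give no drug treatment or time for any of them. The 3 control libraries (Ctrl) have the puromycin vector, and the other groups express TAZ4A or the fusion TAZ-CAMTA1, with 3 libraries each. TAZ, encoded by Wwtr1, is a co-activator that works through TEAD proteins at DNA, TAZ4A is a mutant that escapes Hippo kinases at serine sites, and TAZ-CAMTA1 is the fusion found in epithelioid hemangioendothelioma, a cancer of endothelial type. The labels do not say whether the libraries of a group came from separate cultures, or whether a group is 1 clone or a pool of transduced cells, so the p-values measure only the spread between these libraries, which may be technical.

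Integrins are receptors for extracellular matrix made of an alpha and a beta subunit, and the pairing sets the ligand. Ligand binding outside the cell and talin and kindlin binding at the beta tail switch them between inactive and active forms. Active integrins cluster into focal adhesions, where vinculin, paxillin, zyxin, the kinase FAK and the complex of integrin-linked kinase, PINCH and parvin connect them to actin. Caveolae are small pits of the plasma membrane, abundant in endothelium, built from caveolins and cavins.

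The libraries held 21966004 to 34224715 reads in genes, so that 3 reads, the limit that a count of 0 allows for counting error, corresponded to 0.0878 to 0.139 CPM. The second TAZ-CAMTA1 replicate was unlike the other 8 libraries. Its correlation with the other TAZ-CAMTA1 libraries across genes was 0.963 and 0.962 (log2 scale), against 0.9975 or more in every other pair of a group, and 3.86% of its reads came from ribosomal protein genes, compared with 1.76% to 2.04% elsewhere. Counts, and most changes in TAZ-CAMTA1, are therefore also given without it. The construct genes were checked first. Camta1 stood at 5.11, 3.41 and 3.63 CPM in the control libraries, 5.20, 4.74 and 4.79 CPM in those labelled TAZ4A and 13.4, 12.5 and 13.5 CPM in the TAZ-CAMTA1 libraries (TAZ-CAMTA1 against control, log2 fold change 1.60 ± 0.14, adjusted p = 7.6e-05 by limma). Wwtr1 stood at 545, 536 and 570.3 CPM in the control libraries, 319, 320.4 and 335 CPM in those labelled TAZ4A and 492, 328 and 491 CPM in the TAZ-CAMTA1 libraries and fell in the libraries labelled TAZ4A (-0.76 ± 0.15, adjusted p = 0.0057 by limma). In TAZ-CAMTA1 Wwtr1 did not rise against control either (-0.36 ± 0.15, not called, and -0.16 ± 0.05, called lower, without replicate 2). As far as mouse reads of Wwtr1 show, that goes against the labels of both constructs, while Camta1 rose in TAZ-CAMTA1. The species of the constructs is not given in the sources used here, and the libraries of the TAZ4A group are called the libraries labelled TAZ4A. All 10 endothelial markers listed were at 1 CPM or more in control, with a summed level of 11560 to 11782 CPM in control, 7530 to 7785 CPM in the libraries labelled TAZ4A and 11104 to 12651 CPM in TAZ-CAMTA1. The summed level of 8 smooth muscle or pericyte markers was 2.96 to 3.67, 17.6 to 18.8 and 5.81 to 8.20 CPM in the 3 groups, and that of 6 fibroblast markers 3.02 to 3.71, 11.4 to 12.6 and 5.61 to 10.5 CPM. The part of these shifts in the results was not tested. In bulk RNA, fewer cells of a type and less RNA per cell cannot be told apart.

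Changes are given as differences of log2(CPM + 0.5) ± standard error. The words rose and fell are kept for genes with an adjusted p under 0.05 in the limma test over all genes. In the libraries labelled TAZ4A, 7 of the 35 tested genes rose and 9 fell against control. That is 45.7% of them, where 24.9% of all 12350 genes tested were called (13.2% higher and 11.7% lower). In TAZ-CAMTA1 8 rose and 4 fell against control, 34.3%, where 32.1% of all genes were called (16.8% higher and 15.3% lower). Between the constructs, 12 were higher in TAZ-CAMTA1 and 4 lower than in the libraries labelled TAZ4A, 45.7% against 37.9% of all genes (19.4% higher and 18.5% lower). Without TAZ-CAMTA1 replicate 2 the counts were 12 up and 13 down of 35 in TAZ4A against control (all genes 28.1% up, 30.6% down and 58.7% in all). They were 17 up and 9 down in TAZ-CAMTA1 against control (all genes 28.3%, 32.6% and 60.9%), and 21 up and 7 down between the constructs (all genes 30.5%, 32.5% and 63.0%).

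Itga2, Itga9 and Itgb7 had control means under 0.5 CPM, and passed the filter on low values through groups in which they were higher. Many calls also depended on which libraries were in the fit. With only the 6 libraries compared, 0 of 16 calls were lost in TAZ4A against control. In TAZ-CAMTA1 against control 5 of 12 were then lost, and 2 of 16 between the constructs. Whether a loss came from the library left out or from the smaller fit was not tested. Leaving out any 1 of the control libraries or of those labelled TAZ4A left 7 to 10 calls of 16 in TAZ4A against control (10 without control replicate 2 and 7 without any other). The share of all genes called fell too, from 24.9% to between 15.8% and 18.1% in these fits. In TAZ4A against control 7 genes (Itga7, Itgb2, Itgb3, Itgb4, Itgb5, Itgb7 and Ptrf) were called in each of the 9 fits that left out 1 library. In TAZ-CAMTA1 against control 8 calls of 12 were left without control replicate 1 and 7 without control replicate 3 (23.0% and 21.2% of all genes called). There 7 genes were called in each fit that left out 1 library (Itga5, Itga7, Itga9, Itgb2, Itgb5, Pxn and Cav1). Between the constructs 14 of 16 were, Itgb1 and Itgb7 being the exceptions. The held calls of Itgb7 and Itga9 carry the limit of the filter given above. On deposited TPM, which scale for gene length, the calls of Itga3, Itga4, Itga6, Itga9, Itgav, Fn1, Pxn and Tns1 in TAZ4A against control were lost, as were those of Itga3, Parva and Tns3 in TAZ-CAMTA1 against control and of Itgb1 and Fn1 between the constructs. On CPM these calls stood with replicate 2 and without it. On TPM without replicate 2, an alternative chosen after the data were seen, none of the 33 genes tested there lost a call. The cause of the losses on TPM was not tested.

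**Figure D1:**
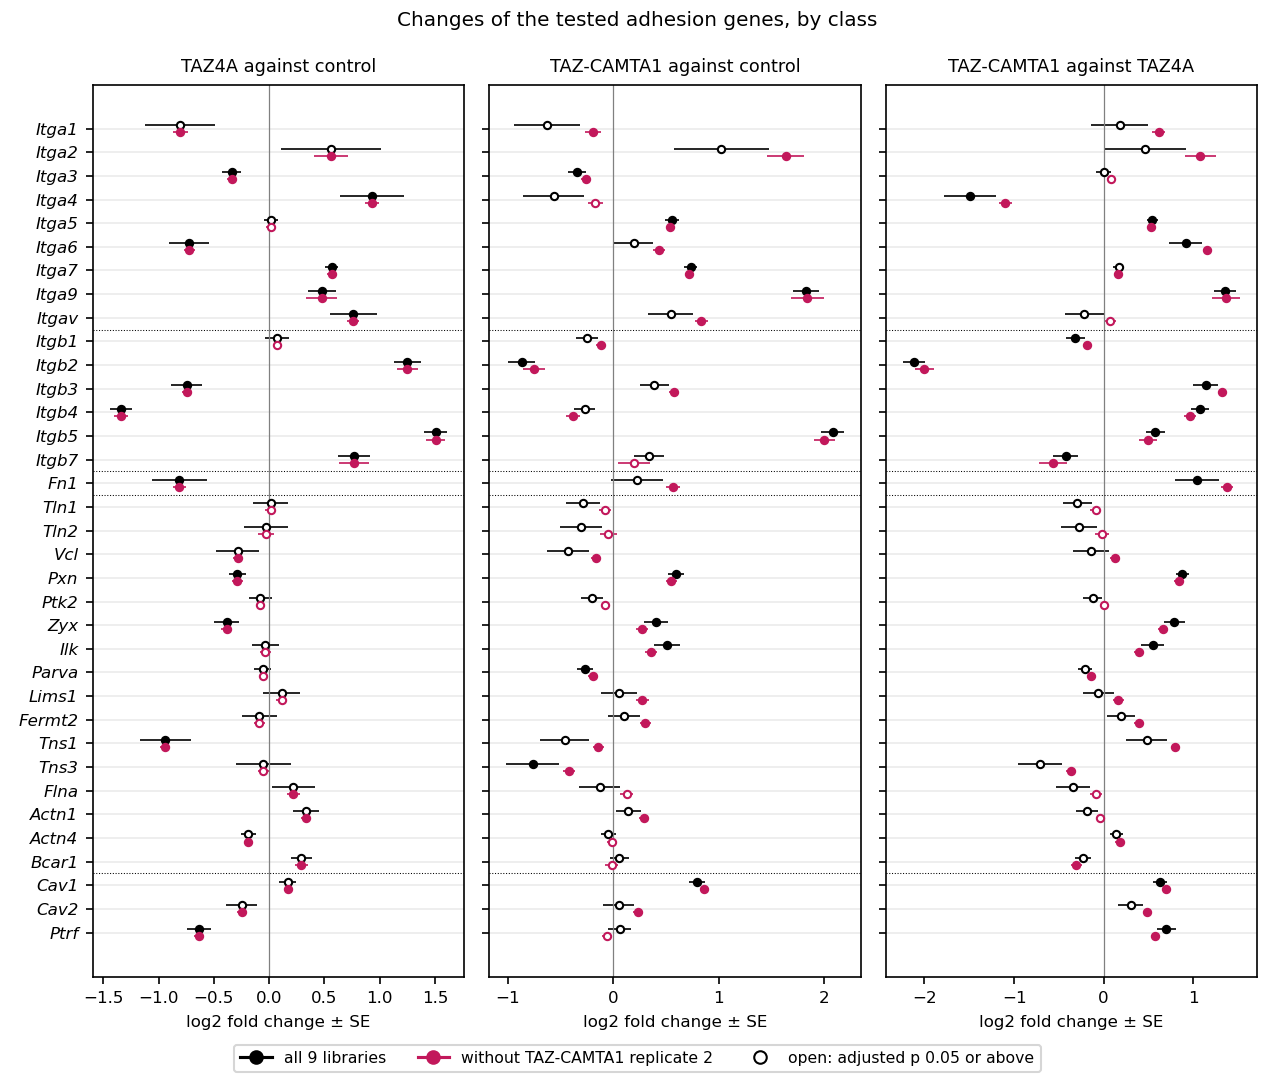
Log2 fold changes (log2(CPM + 0.5) scale, x axis) with standard errors of the 35 tested genes (y axis, dotted lines between integrin alpha, integrin beta, ligand, adaptor and caveola genes), with all 9 libraries (black) and without TAZ-CAMTA1 replicate 2 (magenta); filled points have an adjusted p under 0.05. Integrin beta genes span from -1.34 to 1.51 in TAZ4A against control, and the standard errors are narrower without replicate 2.

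Among the 9 alpha subunits tested, Itga3 and Itga6 fell and Itga4, Itga7, Itga9 and Itgav rose in the libraries labelled TAZ4A. In TAZ-CAMTA1 against control Itga5, Itga7 and Itga9 rose and Itga3 fell. Itga3 (chr11:95044482-95076714, mm10, as are all coordinates here), a laminin receptor subunit, stood at 726, 687 and 700.5 CPM in the control libraries, 567, 565 and 539 CPM in those labelled TAZ4A and 584, 497 and 595 CPM in the TAZ-CAMTA1 libraries. All 6 construct libraries lay below the 3 control libraries, and the change was -0.34 ± 0.08, adjusted p = 0.018 for TAZ4A and -0.34 ± 0.08, adjusted p = 0.016 for TAZ-CAMTA1 (-0.26 ± 0.04 without replicate 2). Itga6 (chr2:71786939-71858427), which pairs with beta1 or beta4 to bind laminin, stood at 563, 538 and 611 CPM in the control libraries, 346, 336 and 355 CPM in those labelled TAZ4A and 788, 466 and 755 CPM in the TAZ-CAMTA1 libraries. It fell in the libraries labelled TAZ4A (-0.72 ± 0.18, adjusted p = 0.02). Its values in TAZ-CAMTA1 spread on both sides of control, with replicate 2 below and the other libraries above. TAZ-CAMTA1 was higher than TAZ4A (0.92 ± 0.18, adjusted p = 0.0048), and without replicate 2 it was also higher than control (0.44 ± 0.05). Itga1, a collagen receptor subunit that pairs with beta1, stood at 130.1, 117 and 151 CPM in the control libraries, 74.8, 75.1 and 76.3 CPM in those labelled TAZ4A and 116, 46.4 and 115 CPM in the TAZ-CAMTA1 libraries. The test over all libraries did not call it in TAZ4A against control (-0.80 ± 0.32, adjusted p = 0.1), although the groups did not overlap, as was so for 63.2% of all genes tested in that comparison (47.4% in TAZ-CAMTA1 against control and 55.3% between the constructs). Without TAZ-CAMTA1 replicate 2 it fell (-0.80 ± 0.07).

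Itga4 (chr2:79255426-79333114) pairs with beta1 or beta7 to bind VCAM-1 and fibronectin. Its level was 27.1, 25.7 and 30.7 CPM in the control libraries, 53.9, 49.9 and 56.2 CPM in those labelled TAZ4A and 24.5, 10.5 and 24.8 CPM in the TAZ-CAMTA1 libraries. All TAZ4A values lay above control and all TAZ-CAMTA1 values below it, with replicate 2 lowest. It rose in the libraries labelled TAZ4A (0.93 ± 0.29, adjusted p = 0.046) and was lower in TAZ-CAMTA1 than in TAZ4A (-1.49 ± 0.29, adjusted p = 0.0041). Against control, TAZ-CAMTA1 did not pass the test (-0.56 ± 0.29, adjusted p = 0.17), nor did it without replicate 2, where the change was -0.17 ± 0.07. Between the constructs it was then -1.10 ± 0.07. Itgav (chr2:83724397-83806917), the alpha subunit of vitronectin receptors, was measured at 134, 119 and 139 CPM in the control libraries, 225, 211 and 229.6 CPM in those labelled TAZ4A and 239, 128 and 228 CPM in the TAZ-CAMTA1 libraries. It rose in the libraries labelled TAZ4A (0.76 ± 0.21, adjusted p = 0.032). In TAZ-CAMTA1 replicates 1 and 3 were above every control library and replicate 2 was among them. The change against control was 0.55 ± 0.21, adjusted p = 0.085, and it was 0.84 ± 0.06 and called without replicate 2.

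Itga5 (chr15:103344286-103366748), which with beta1 forms the main fibronectin receptor, stood at 568, 540.5 and 558 CPM in the control libraries, 572, 573 and 540.3 CPM in those labelled TAZ4A and 803, 839 and 816 CPM in the TAZ-CAMTA1 libraries. Every TAZ-CAMTA1 library was above the 6 others, and the gene was called higher in TAZ-CAMTA1 against both groups (0.56 ± 0.06, adjusted p = 3.3e-04 against control and 0.54 ± 0.06, adjusted p = 2.7e-04 against TAZ4A). Between TAZ4A and control the groups overlapped (0.02 ± 0.06, adjusted p = 0.9). Replicate 2 lay close to the other TAZ-CAMTA1 libraries here, and the change against control without it was 0.54 ± 0.04. Itga7 (chr10:128933813-128958284), a laminin receptor subunit best known from muscle, stood at 204, 198 and 204 CPM in the control libraries, 302, 306 and 289.6 CPM in those labelled TAZ4A and 339, 342 and 329.6 CPM in the TAZ-CAMTA1 libraries. Both constructs were above control without overlap (0.56 ± 0.06, adjusted p = 2.1e-04 for TAZ4A and 0.74 ± 0.06, adjusted p = 6.7e-05 for TAZ-CAMTA1). Without replicate 2 the change in TAZ-CAMTA1 was 0.72 ± 0.05, and the difference between the constructs, 0.17 ± 0.06 over all libraries, was 0.16 ± 0.05 and called.

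Several alpha subunits were near the floor. Itga9, which with beta1 binds tenascin and the fibronectin EIIIA segment, stood at 0.371, 0.628 and 0.376 CPM in the control libraries, 0.743, 0.965 and 0.767 CPM in those labelled TAZ4A and 2.90, 2.82 and 2.92 CPM in the TAZ-CAMTA1 libraries. It was called higher in both constructs (0.47 ± 0.13, adjusted p = 0.025 in TAZ4A and 1.83 ± 0.13, adjusted p = 2.3e-05 in TAZ-CAMTA1), and TAZ-CAMTA1 was above TAZ4A (1.36 ± 0.13, adjusted p = 7.5e-05). The changes in TAZ-CAMTA1 were 1.84 ± 0.16 and 1.37 ± 0.16 without replicate 2. The collagen receptor subunit Itga2 stood at 0.232, 0.149 and 0.313 CPM in the control libraries, 0.526, 0.585 and 0.614 CPM in those labelled TAZ4A and 1.39, 0.134 and 2.22 CPM in the TAZ-CAMTA1 libraries, and replicate 2 was below every control library where the other TAZ-CAMTA1 libraries were the highest of all. It was not called in any comparison over all libraries. Itga8, which pairs with beta1, ranged from 0.101 to 0.495 CPM over the 9 libraries and was not tested.

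Beta subunits changed in both directions, with 3 of 6 up and 2 down in TAZ4A against control, 1 up and 1 down in TAZ-CAMTA1 against control, and 3 higher and 3 lower between the constructs (all genes called 24.9%, 32.1% and 37.9%). Among those up in TAZ4A was Itgb7, under 0.5 CPM in control. Without replicate 2, Itgb3 and Itgb5 were up and Itgb1, Itgb2 and Itgb4 down in TAZ-CAMTA1 against control (all genes 60.9%), and the counts of the other comparisons were the same. Itgb5 (chr16:33829665-33949338), which pairs with alphav to bind vitronectin, rose in both constructs from a low level. It stood at 2.79, 3.17 and 3.13 CPM in the control libraries, 9.22, 10.4 and 8.93 CPM in those labelled TAZ4A and 13.3, 16.1 and 14.0 CPM in the TAZ-CAMTA1 libraries. The 3 groups did not overlap, and the changes were 1.51 ± 0.11, adjusted p = 1.5e-05 for TAZ4A, 2.08 ± 0.11, adjusted p = 4.5e-06 for TAZ-CAMTA1 and 0.57 ± 0.11, adjusted p = 0.003 between the constructs (2.00 ± 0.10 and 0.50 ± 0.10 without replicate 2). Itgb3 (chr11:104608000-104670471), the other main partner of alphav in endothelium, stood at 278, 279 and 276 CPM in the control libraries, 167, 166 and 163 CPM in those labelled TAZ4A and 418, 283 and 410.3 CPM in the TAZ-CAMTA1 libraries. It fell in the libraries labelled TAZ4A (-0.74 ± 0.14, adjusted p = 0.0047). In TAZ-CAMTA1, replicates 1 and 3 were far above control and replicate 2 just above it. Against control it did not pass the test over all libraries (0.39 ± 0.14, adjusted p = 0.062), and without replicate 2 it rose (0.58 ± 0.04). TAZ-CAMTA1 was above TAZ4A in every library (1.14 ± 0.14, adjusted p = 3.8e-04).

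Itgb4 (chr11:115974725-116008411), the partner of alpha6 in hemidesmosomes of epithelia, fell in the libraries labelled TAZ4A. Its values were 27.9, 26.9 and 27.7 CPM in the control libraries, 10.4, 11.1 and 10.2 CPM in those labelled TAZ4A and 21.0, 26.5 and 21.1 CPM in the TAZ-CAMTA1 libraries, and every construct library was below every control library. The changes were -1.34 ± 0.10, adjusted p = 2.4e-05 for TAZ4A and -0.27 ± 0.10, adjusted p = 0.073 for TAZ-CAMTA1. Without replicate 2, which was the highest of its group here, Itgb4 was also called lower in TAZ-CAMTA1 than in control (-0.38 ± 0.07). Itgb1 (chr8:128685654-128733579), the beta subunit with the most alpha partners, stood at 715, 714 and 729 CPM in the control libraries, 748, 744 and 775 CPM in those labelled TAZ4A and 658, 507 and 667 CPM in the TAZ-CAMTA1 libraries. Over all libraries it was called only between the constructs (-0.32 ± 0.11, adjusted p = 0.045, and -0.19 ± 0.04 without replicate 2). That call was lost on TPM, with no filter on low values, with the 6 libraries compared alone, and without any 1 of the control libraries or of those labelled TAZ4A.

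Itgb2 and Itgb7 are known as leukocyte integrin subunits. Itgb2 (chr10:77530348-77565674) stood at 4.64, 3.83 and 3.89 CPM in the control libraries, 10.6, 9.95 and 10.9 CPM in those labelled TAZ4A and 2.25, 1.65 and 2.22 CPM in the TAZ-CAMTA1 libraries. The 3 groups did not overlap, with TAZ4A highest and TAZ-CAMTA1 lowest. It rose in the libraries labelled TAZ4A (1.25 ± 0.13, adjusted p = 1.3e-04) and fell in TAZ-CAMTA1 (-0.87 ± 0.13, adjusted p = 0.0011, and -0.75 ± 0.11 without replicate 2). The leukocyte markers Ptprc, Csf1r, Cd79a and Laptm5 were each at 0.186 CPM or less in every library. Lyz2, another leukocyte marker, stood at 0 to 0.0313 CPM in control, 1.197 to 1.92 CPM in the libraries labelled TAZ4A and 5.62 to 8.87 CPM in TAZ-CAMTA1. The summed level of the 6 leukocyte markers found, of 8 listed, was 451 to 524, 396 to 404 and 462 to 713 CPM in the 3 groups and was nearly all Cd68. Adgre1 and Cd3e, the others listed, have no row under those symbols. The part of leukocyte transcripts in the level of Itgb2 was not tested. Itgb7 stood at 0.232, 0.329 and 0.345 CPM in the control libraries, 0.898, 0.965 and 0.737 CPM in those labelled TAZ4A and 0.401, 0.739 and 0.436 CPM in the TAZ-CAMTA1 libraries, under 1 CPM in every library. It was called higher in the libraries labelled TAZ4A (0.77 ± 0.14, adjusted p = 0.0047).

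**Figure D2:**
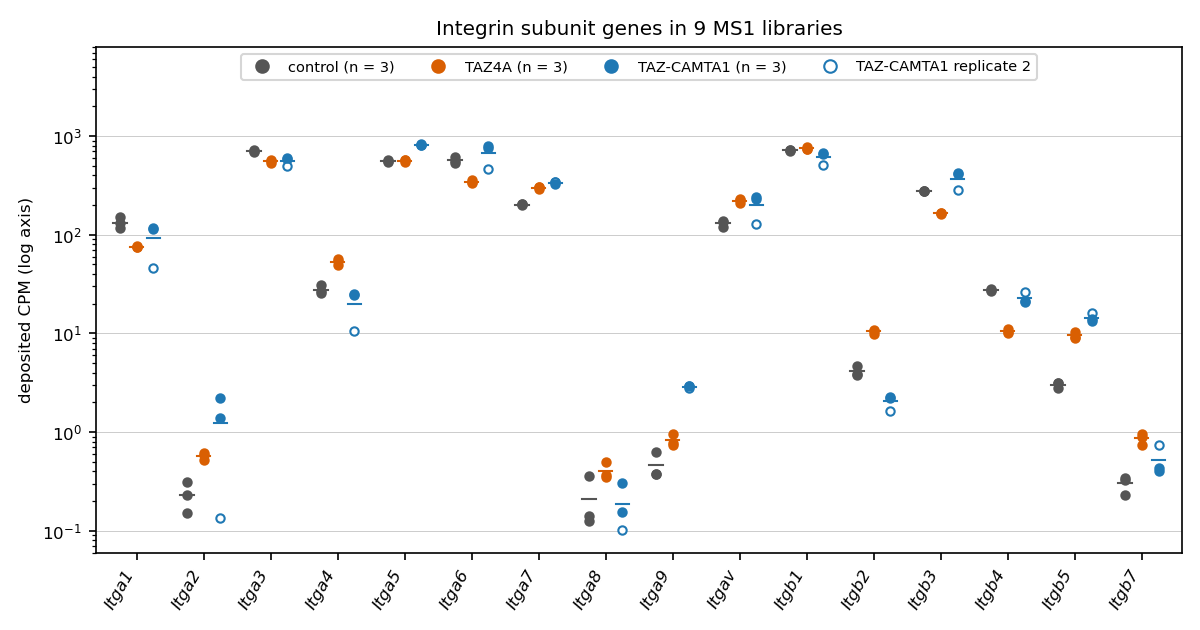
Deposited CPM (log axis) of the 16 integrin subunit genes with a row (x axis) in each library; points are libraries, short lines are group means (n = 3), and open points are TAZ-CAMTA1 replicate 2. Itga4, Itga7, Itga9, Itgb1, Itgb2, Itgb3, Itgb4 and Itgb5 show 3 groups apart. Groups did not overlap in 63.2% of all genes tested in TAZ4A against control, 47.4% in TAZ-CAMTA1 against control and 55.3% between the constructs. Itga1, Itga4, Itga6 and Itgav show replicate 2 well below the other TAZ-CAMTA1 libraries.

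Levels of different genes were compared per length, on deposited TPM. In control, Itga3 was the highest alpha subunit at 353 ± 14.0 TPM (SD, n = 3), followed by Itga5 at 309.5 ± 12.6 TPM, Itga6 at 231 ± 19.4 TPM and Itga7 at 122 ± 4.27 TPM, with no overlap between neighbours. Itga1 at 54.1 ± 7.97 TPM and Itgav at 45.2 ± 4.34 TPM overlapped, Itga4 was lower at 6.89 ± 0.772 TPM, and Itga9, Itga2 and Itga8, at 0.157, 0.134 and 0.0868 TPM, overlapped each other. Itga5 ranked above Itga3 in both constructs (324 ± 9.39 against 289 ± 7.03 TPM in the libraries labelled TAZ4A and 438 ± 43.6 against 272 ± 55.9 TPM in TAZ-CAMTA1). Among beta subunits Itgb1 led in every group, at 417 ± 12.7 TPM in control, and Itgb3 was second at 117 ± 1.53 TPM.

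Shares within a class describe the make-up of the integrin transcripts apart from their total. As a share of the summed TPM of the 6 beta genes, Itgb1 took 75.6, 75.6 and 76.1% in control, 82.6, 82.5 and 83.5% in those labelled TAZ4A and 66.0, 67.2 and 66.7% for the fusion. Itgb3 took 21.3, 21.4 and 20.9% in control, then 13.4, 13.4 and 12.7%, and for the fusion 30.4, 27.2 and 29.7%. The 3 groups were apart for both genes, replicate 2 included. Since the shares of both genes add up to nearly the whole class, they are not independent. Among alpha genes the mean share of Itga3 was 31.5% for control, 27.0% for TAZ4A and 21.2% for the fusion. That of Itga5 was 27.6%, 30.3% and 34.7%, with 39.7% in replicate 2 and 31.9% and 32.7% in replicates 1 and 3. Each of these differences had a two-sided exact permutation p of 0.1 (n = 3 against 3), the smallest that this design allows, and the 4 genes were chosen after their values were seen.

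Fn1 (chr1:71585473-71653234) encodes fibronectin, the matrix ligand of alpha5beta1 and alphav integrins. It stood at 1061, 921 and 1136 CPM in the control libraries, 601, 590.0 and 579 CPM in those labelled TAZ4A and 1531, 761 and 1536 CPM in the TAZ-CAMTA1 libraries. The libraries labelled TAZ4A were below control without overlap (-0.81 ± 0.25, adjusted p = 0.044). TAZ-CAMTA1 replicates 1 and 3 were above every control library and replicate 2 below them all. Against control the change was 0.23 ± 0.25, adjusted p = 0.5, and 0.57 ± 0.06 and called without replicate 2. TAZ-CAMTA1 was above TAZ4A (1.04 ± 0.25, adjusted p = 0.011, and 1.38 ± 0.06 without replicate 2).

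Fibronectin transcripts contain 2 cassette exons, EIIIA and EIIIB, each encoding a whole type III repeat. They are mostly skipped in the plasma form made by liver and partly included in the cellular form, and they are prominent in developing and remodelling vessels. Junction reads measure their use apart from the level of the gene. Both exons are printed because the libraries labelled TAZ4A did not overlap the others in their inclusion. They are on the minus strand, with capitals for the exon and lower case for 10 bases of the exons on either side in the spliced transcript (GENCODE vM21, GRCm38, transcript Fn1-201). EIIIA is exon 33, 270 nt, at chr1:71603660-71603929, and EIIIB is exon 25, 273 nt, at chr1:71613763-71614035.
Fn1 exon 33 (EIIIA): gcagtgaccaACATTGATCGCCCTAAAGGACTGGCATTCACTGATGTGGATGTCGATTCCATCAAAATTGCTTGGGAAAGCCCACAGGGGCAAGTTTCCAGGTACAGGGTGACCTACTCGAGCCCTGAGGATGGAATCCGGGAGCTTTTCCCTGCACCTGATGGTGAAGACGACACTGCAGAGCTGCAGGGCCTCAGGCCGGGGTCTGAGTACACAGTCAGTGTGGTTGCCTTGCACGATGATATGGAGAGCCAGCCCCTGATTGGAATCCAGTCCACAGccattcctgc
Fn1 exon 25 (EIIIB): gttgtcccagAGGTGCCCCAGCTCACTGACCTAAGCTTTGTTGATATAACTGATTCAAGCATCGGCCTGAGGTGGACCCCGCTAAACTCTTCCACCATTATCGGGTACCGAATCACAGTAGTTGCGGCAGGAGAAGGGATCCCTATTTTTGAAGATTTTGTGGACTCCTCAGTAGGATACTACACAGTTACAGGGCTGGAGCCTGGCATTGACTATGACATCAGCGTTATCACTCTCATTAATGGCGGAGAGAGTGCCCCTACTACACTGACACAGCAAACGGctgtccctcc
Both lengths are multiples of 3, so either exon can be left out without a shift of the reading frame.

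The share of transcripts with EIIIA, from uniquely mapped junction reads, was 42.8, 41.6 and 41.7% in the control libraries, 58.9, 55.3 and 60.5% in those labelled TAZ4A and 41.2, 40.7 and 45.5% in the TAZ-CAMTA1 libraries. It was higher in every library labelled TAZ4A than in the other 6 libraries, while control and TAZ-CAMTA1 overlapped. The means were 42.0 ± 0.664%, 58.3 ± 2.66% and 42.5 ± 2.60% (SD, n = 3), a difference of 16.2 percentage points between TAZ4A and control (15.1 to 17.7 with any 1 of these 6 libraries left out). EIIIB inclusion was 13.3, 10.9 and 8.33% in the control libraries, 17.3, 15.5 and 14.8% in those labelled TAZ4A and 8.48, 9.52 and 9.47% in the TAZ-CAMTA1 libraries. The libraries labelled TAZ4A were again above all others, with means of 10.8 ± 2.48%, 15.9 ± 1.30% and 9.16 ± 0.586%. Each value rests on at least 190 informative junction reads for EIIIA and at least 46 for EIIIB, the fewest being in TAZ-CAMTA1 replicate 2. The exact permutation p was 0.1, two-sided, for both exons in TAZ4A against control and against TAZ-CAMTA1, the smallest possible for 3 against 3 libraries, and 0.2 after adjustment over 18 exon tests.

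In all, 6 annotated cassette exons in 5 of the genes had at least 20 informative junction reads in every library. Groups did not overlap for 2 of the 6 in TAZ4A against control, 3 in TAZ-CAMTA1 against control and 4 between the constructs, where 17.0%, 21.5% and 19.1% of 534 such exons in all genes did not. Exon 29 of Flna, which encodes the actin cross-linker filamin A, is 24 nt long. It is printed because it is the cassette exon that separated TAZ-CAMTA1 from both other groups with inclusion higher. It lies at chrX:74232967-74232990 on the minus strand, shown in capitals with 15 bases of the neighbouring exons (transcript Flna-201).
Flna exon 29: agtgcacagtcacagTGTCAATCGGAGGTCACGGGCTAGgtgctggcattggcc
Its inclusion was 56.7, 61.0 and 65.4% in the control libraries, 65.1, 62.1 and 65.2% in those labelled TAZ4A and 70.9, 71.8 and 70.1% in the TAZ-CAMTA1 libraries. Every TAZ-CAMTA1 library lay above the other 6, by 9.93 percentage points on average against control (9.47 without replicate 2). Pxn exon 7, 102 nt, was included in 22.4, 24.8 and 26.04% in the control libraries, 22.9, 22.2 and 27.8% in those labelled TAZ4A and 21.9, 17.8 and 15.3% in the TAZ-CAMTA1 libraries, and TAZ-CAMTA1 was below both other groups. Zyx exon 4, 93 nt, was included at over 90% in all libraries, and its groups overlapped. Exon 25 of Itga6, 130 nt, distinguishes the A form of the alpha6 cytoplasmic tail, which contains it, from the B form. Its inclusion was 55.1, 52.4 and 55.9% in the control libraries, 46.9, 66.8 and 61.5% in those labelled TAZ4A and 47.8, 52.0 and 48.3% in the TAZ-CAMTA1 libraries. TAZ-CAMTA1 was just below control, while the libraries labelled TAZ4A spread over both, with replicate 1 lowest. For all 3 exons outside Fn1 whose groups did not overlap in TAZ-CAMTA1 against control (Flna, Itga6 and Pxn) the exact permutation p was 0.1, two-sided, and 0.2 after adjustment.

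**Figure D3:**
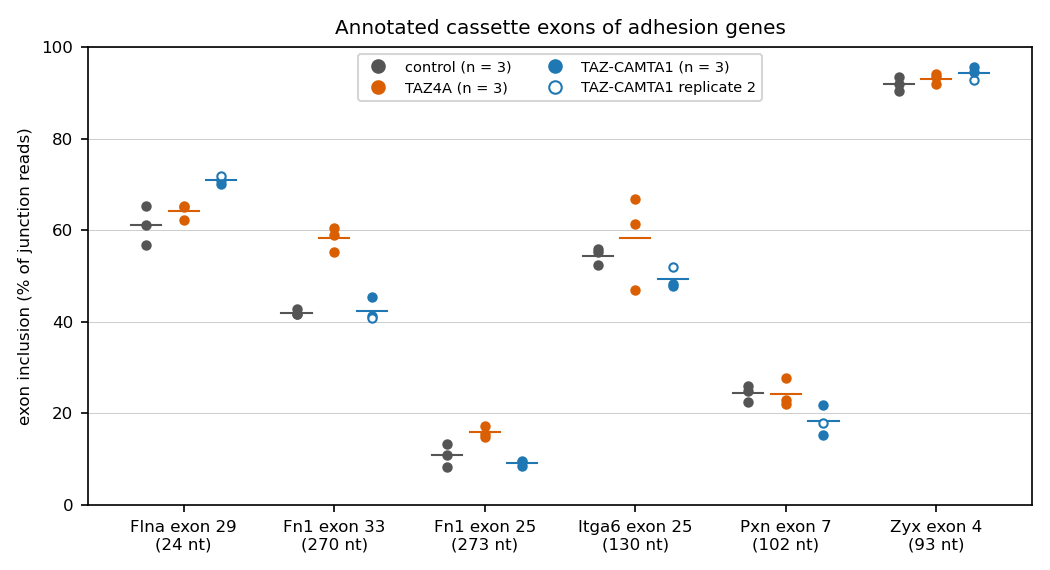
Inclusion (y axis, percent of junction reads) of the 6 annotated cassette exons (x axis) in each library; points are libraries, short lines are group means (n = 3), and open points are TAZ-CAMTA1 replicate 2. Both Fn1 exons are highest in the 3 libraries labelled TAZ4A (55.3% to 60.5% for exon 33), and the Flna exon is highest in the 3 TAZ-CAMTA1 libraries.

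Of the 16 adaptor, linker and kinase genes, 3 fell and none rose by the limma test in TAZ4A against control, 18.8% against 24.9% of all genes. In TAZ-CAMTA1 against control 3 rose and 2 fell, 31.2% against 32.1% of all genes, and between the constructs 3 were higher in TAZ-CAMTA1, 18.8% against 37.9%. Without replicate 2 the counts were 3 up and 5 down (all genes 58.7%), 6 up and 4 down (60.9%), and 8 up and 3 down (63.0%). Paxillin and zyxin, LIM proteins of focal adhesions and, for zyxin, of stress fibres, were lower in TAZ4A and higher in TAZ-CAMTA1 than in control. Pxn (chr5:115506676-115555987) stood at 297, 263 and 280.0 CPM in the control libraries, 232, 232 and 224 CPM in those labelled TAZ4A and 406, 449 and 414 CPM in the TAZ-CAMTA1 libraries. The 3 groups did not overlap, with changes of -0.29 ± 0.08, adjusted p = 0.023 in TAZ4A, 0.59 ± 0.08, adjusted p = 5.4e-04 in TAZ-CAMTA1 and 0.88 ± 0.08, adjusted p = 4.8e-05 between them. Without replicate 2 the latter changes were 0.55 ± 0.05 and 0.84 ± 0.05. The call of Pxn in TAZ4A was lost with equal library sums and with the replicate number as a block in the fit, as well as on TPM. That of Zyx was lost with equal library sums. Zyx (chr6:42349828-42360213) stood at 188, 179 and 168 CPM in the control libraries, 141, 139.7 and 129 CPM in those labelled TAZ4A and 209.9, 282 and 223 CPM in the TAZ-CAMTA1 libraries, again with 3 groups apart, and replicate 2 was highest. Its changes were -0.38 ± 0.11, adjusted p = 0.041 and 0.41 ± 0.11, adjusted p = 0.027 against control, and 0.28 ± 0.06 for TAZ-CAMTA1 without replicate 2. Zyx in TAZ4A was not called by edgeR on the recovered reads.

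Ilk (chr7:105736590-105742925), a pseudokinase that scaffolds the link from beta tails to actin, stood at 126, 132 and 119 CPM in the control libraries, 124, 123 and 121 CPM in those labelled TAZ4A and 155, 222 and 168 CPM in the TAZ-CAMTA1 libraries. TAZ-CAMTA1 was above all other libraries (0.51 ± 0.13, adjusted p = 0.015 against control and 0.55 ± 0.13, adjusted p = 0.0096 against TAZ4A), with replicate 2 the highest, and the change against control was 0.36 ± 0.05 without it. Its partner alpha-parvin, Parva (chr7:112427706-112591688), stood at 435, 438 and 439 CPM in the control libraries, 426, 415 and 419 CPM in those labelled TAZ4A and 378, 328 and 386 CPM in the TAZ-CAMTA1 libraries. It was lower in TAZ-CAMTA1 than in control (-0.27 ± 0.08, adjusted p = 0.029, and -0.19 ± 0.04 without replicate 2). The third member of that complex, PINCH1 (Lims1), stood at 212, 198 and 232 CPM in the control libraries, 231, 222 and 241 CPM in those labelled TAZ4A and 261, 163 and 258 CPM in the TAZ-CAMTA1 libraries. It was not called over all libraries, and between the constructs its sign turned from -0.06 ± 0.17 to 0.16 ± 0.06 without replicate 2.

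Tensins bind beta tails at fibrillar adhesions, where fibronectin is assembled. Tns1 (chr1:73910231-74124449) stood at 337, 305 and 337 CPM in the control libraries, 172, 171 and 166 CPM in those labelled TAZ4A and 293, 153 and 298 CPM in the TAZ-CAMTA1 libraries. It fell in the libraries labelled TAZ4A (-0.94 ± 0.23, adjusted p = 0.017). TAZ-CAMTA1 replicates 1 and 3 were just below control and replicate 2 was below the TAZ4A libraries. Tns3 (chr11:8431652-8664535) stood at 221, 202 and 228 CPM in the control libraries, 214, 209 and 205 CPM in those labelled TAZ4A and 163, 78.8 and 162 CPM in the TAZ-CAMTA1 libraries, with TAZ-CAMTA1 below every other library. It fell in TAZ-CAMTA1 (-0.76 ± 0.25, adjusted p = 0.047), and by -0.42 ± 0.05 without replicate 2, which was lowest. Tns3 in TAZ-CAMTA1 was not called by edgeR on the recovered reads either. The authors' own deposited comparison did call it lower than control (-0.692, false discovery rate 0.01).

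The other 10 genes of this class were not called in any comparison over all libraries. The talins, which activate integrins, had changes between -0.30 and 0.01 over all libraries and between -0.09 and 0.01 without replicate 2. Tln1 stood at 631, 547 and 626 CPM in the control libraries, 620.3, 609.6 and 588 CPM in those labelled TAZ4A and 562, 371 and 576 CPM in the TAZ-CAMTA1 libraries. Tln2 was far lower at 18.6, 16.9 and 18.8 CPM in the control libraries, 18.2, 18.3 and 16.7 CPM in those labelled TAZ4A and 16.6, 10.01 and 18.5 CPM in the TAZ-CAMTA1 libraries, with replicate 2 apart. Vinculin, which binds talin under tension, stood at 422, 398 and 445 CPM in the control libraries, 342, 343 and 352 CPM in those labelled TAZ4A and 375, 216 and 379 CPM in the TAZ-CAMTA1 libraries. The sign of Vcl between the constructs turned from -0.14 ± 0.20 to 0.13 ± 0.05 without replicate 2. Focal adhesion kinase, Ptk2, stood at 275, 276 and 279.8 CPM in the control libraries, 265, 261 and 259 CPM in those labelled TAZ4A and 262, 202 and 263 CPM in the TAZ-CAMTA1 libraries. Kindlin-2 (Fermt2), filamin A (Flna), the alpha-actinins Actn1 and Actn4 and the FAK substrate p130Cas (Bcar1) had changes between -0.34 and 0.33 (-0.30 and 0.39 without replicate 2). Without replicate 2, Actn1, Bcar1 and Flna were called higher and Vcl and Actn4 lower in TAZ4A than in control, and Lims1, Fermt2 and Actn1 higher and Vcl and Tns1 lower in TAZ-CAMTA1. Neither Tln1, Tln2 nor Ptk2 was called with replicate 2 or without it.

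Of the caveola genes Cav1 (chr6:17306335-17341328), the principal caveolin of endothelium, stood at 997, 969 and 1009 CPM in the control libraries, 1109.5, 1096 and 1139 CPM in those labelled TAZ4A and 1797, 1567 and 1818 CPM in the TAZ-CAMTA1 libraries. TAZ-CAMTA1 was above all 6 other libraries (0.80 ± 0.08, adjusted p = 1.3e-04 against control and 0.63 ± 0.08, adjusted p = 3.3e-04 against TAZ4A), and by 0.87 ± 0.04 against control without replicate 2. Ptrf (chr11:100956736-100970617), which encodes the coat protein cavin-1, stood at 572, 619 and 592 CPM in the control libraries, 380.2, 388 and 377 CPM in those labelled TAZ4A and 595, 735 and 547 CPM in the TAZ-CAMTA1 libraries. It fell in the libraries labelled TAZ4A (-0.64 ± 0.11, adjusted p = 0.0027), whose values lay below all others, and was higher in TAZ-CAMTA1 than in TAZ4A (0.70 ± 0.11, adjusted p = 0.0012). Control and TAZ-CAMTA1 overlapped. Cav2, which assembles with Cav1, stood at 301, 309.7 and 323 CPM in the control libraries, 254, 261 and 271 CPM in those labelled TAZ4A and 377, 249.7 and 357 CPM in the TAZ-CAMTA1 libraries. It was not called over all libraries. Without replicate 2 it fell in TAZ4A (-0.25 ± 0.04) and rose in TAZ-CAMTA1 (0.24 ± 0.05). The 3 caveola genes did not change alike in TAZ4A, where the change of Cav1 was 0.17 ± 0.08 and that of Ptrf -0.64 ± 0.11.

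**Figure D4:**
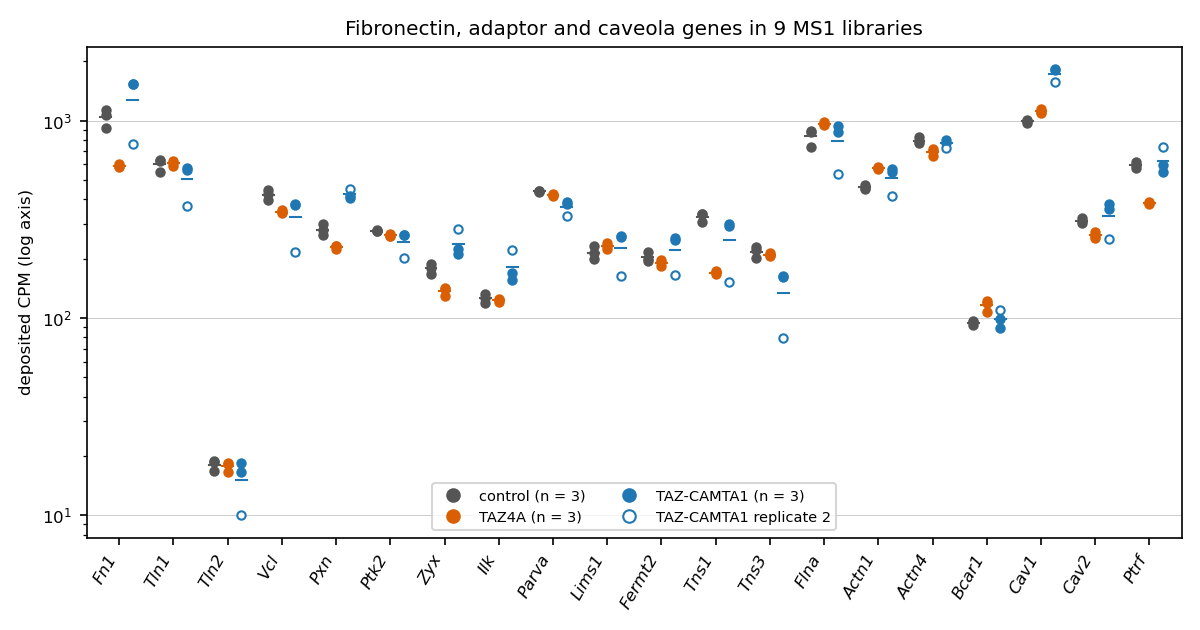
Deposited CPM (log axis) of fibronectin, the 16 adaptor genes and the 3 caveola genes (x axis) in each library; points are libraries, short lines are group means (n = 3), and open points are TAZ-CAMTA1 replicate 2. Pxn, Zyx, Parva and Cav1 show 3 groups apart, Cav1 is highest in the TAZ-CAMTA1 libraries (1567 to 1818 CPM), and Ptrf and Tns1 are low in the libraries labelled TAZ4A.

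The classes differed in the size of their changes. In TAZ4A against control the median size of a change was 0.745 on the log2 scale over the 15 tested integrin genes, 0.150 over the 16 adaptor genes and 0.248 over the 3 caveola genes, beside 0.203 over all genes tested. The integrin median was 0.753 over the 12 genes left without Itga2, Itga9 and Itgb7. In TAZ-CAMTA1 against control the medians were 0.561, 0.274 and 0.064, beside 0.281 over all genes, and 0.543, 0.176 and 0.237 without replicate 2, beside 0.240. Between the constructs they were 0.545, 0.253 and 0.629, beside 0.311. Without Itga2, Itga9 and Itgb7, which passed the filter on low values through groups in which they were higher, 5 of 12 integrin genes rose and 4 fell in TAZ4A against control, where 13.2% of all genes rose and 11.7% fell. For TAZ-CAMTA1 against control, 3 of the 12 rose and 2 fell (all genes 16.8% and 15.3%), and between the constructs 5 were higher and 3 lower (all genes 19.4% and 18.5%). Without replicate 2 these counts were 5 and 5 (all genes 28.1% and 30.6%), 6 and 5 (28.3% and 32.6%) and 7 and 3 (30.5% and 32.5%), and the median between the constructs over the 12 genes was 0.571. These are descriptions of lists chosen with results known, and carry no test.

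Both constructs were compared with the same 3 control libraries, so the comparisons are not independent, and the patterns are given as counts. Pxn and Zyx were called lower in TAZ4A and higher in TAZ-CAMTA1 than control, a pattern of 1.63% of all genes tested. The authors' deposited table called neither in TAZ4A against control (false discovery rate 0.16 and 0.07). Itgb2 alone had the opposite pattern (1.48% of all genes). Itga7, Itga9 and Itgb5 were higher in both (6.20%) and Itga3 lower in both (4.43%). Itga9, like Itga2 below, passed the filter on low values through groups in which it was higher. The authors' table did not call Itga3 in TAZ4A (0.075) or in TAZ-CAMTA1 (0.071) against control. Without replicate 2 the first pattern held 6 genes, Itga6, Itgb3, Fn1, Pxn, Zyx and Cav2 (5.32% of all genes), the second again Itgb2 (5.54%), and the third 7 genes, with Itga2, Itgav, Actn1 and Cav1 added (13.5%). Lower in both were then Itga1, Itga3, Itgb4, Vcl and Tns1 (14.7%).

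Replicate 2 touched these genes unevenly. Among the 35 tested genes it was lower than both other TAZ-CAMTA1 libraries in 25 and higher in 10, with 14 genes over 1.5-fold lower and none over 1.5-fold higher, and a median log2 difference of -0.386 (all genes -0.017). Of 11299 tested genes with a length, it was lower than both others in 5378 and higher in 5096. Over 1.5-fold lower were 2173 of them, and over 1.5-fold higher 1543. Across the 35 genes the difference fell with the length of the longest annotated transcript (Spearman's correlation -0.722, n = 35 genes of the same 3 libraries). Across 11299 genes with a length it was -0.751. Ilk, Zyx and Ptrf were among the genes higher in it than in both others, and Itga1, Itga4, Fn1, Tns1 and Tns3 among those lower. Its part in any single change was not tested beyond the values given without it.

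**Figure D5:**
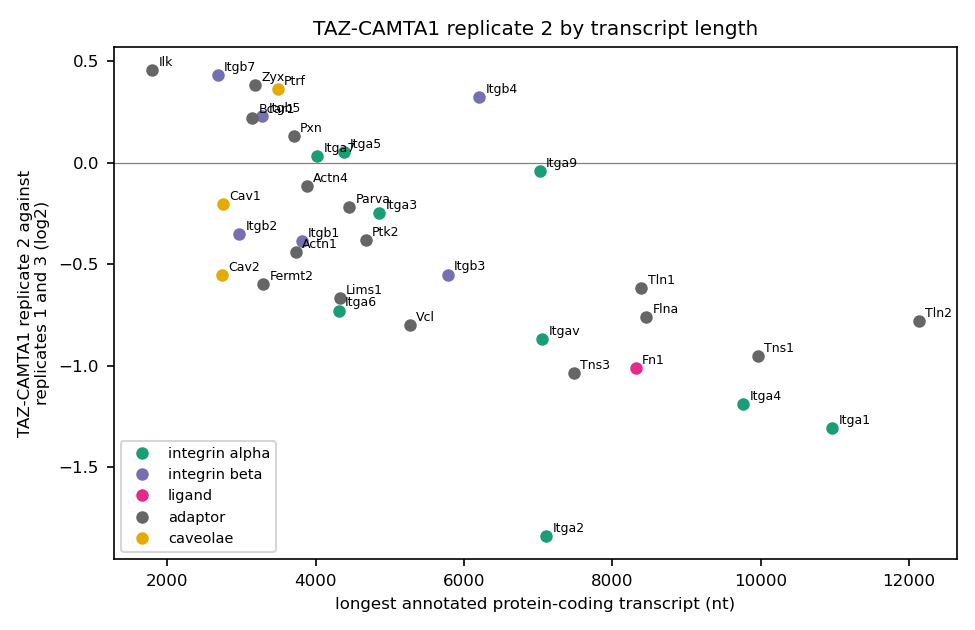
Log2 level of TAZ-CAMTA1 replicate 2 against the mean of replicates 1 and 3 (y axis) by the length of the longest annotated protein-coding transcript in nt (x axis) for the 35 tested genes, coloured by class. Points fall with length (Spearman's correlation -0.722).

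The authors' deposited table of comparisons called 14 of the 36 genes at a false discovery rate under 0.05 in TAZ4A against control (7 higher and 7 lower, where 18.3% of its 17565 genes were called). The same deposited table of the authors called 12 in TAZ-CAMTA1 against control (10 higher and 2 lower, 22.1% of all genes) and 16 between the constructs (13 higher and 3 lower, 27.3% of all genes). The genes called were not all those of the limma test. In TAZ4A against control that table called Itga1 but not Itga3, Pxn or Zyx. In TAZ-CAMTA1 against control it called Itga2 and Itgav but not Itga3 or Parva. Between the constructs it called Tns1 and Tns3 but not Itgb1 or Itgb7.

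Other genes of adhesion were described from a list of 92 symbols, of which 86 have a row and 72 were tested. In TAZ4A against control 12 rose and 14 fell, in TAZ-CAMTA1 against control 19 rose and 7 fell, and between the constructs 20 were higher and 9 lower in TAZ-CAMTA1. Without replicate 2, 71 were tested, with 23 up and 29 down, 33 up and 16 down, and 36 up and 15 down. Of all genes tested, 24.9%, 32.1% and 37.9% were called in these comparisons over all libraries, and 58.7%, 60.9% and 63.0% without replicate 2. Among other matrix ligands, 4 of 10 rose and none fell by the limma test in TAZ4A against control (all genes 13.2% and 11.7%). Without replicate 2, 4 rose and 2 (Tnc and Vwf) fell (all genes 28.1% and 30.6%). Cyr61, a matricellular ligand of alphav and alpha6 integrins, rose in both constructs, from 562 ± 11.5 CPM (SD, n = 3) in control to 1298 ± 11.3 CPM in TAZ4A and 1237 ± 40.0 CPM in TAZ-CAMTA1 (1.21 ± 0.06, adjusted p = 2.3e-06 and 1.14 ± 0.06, adjusted p = 6.2e-06, and 1.11 ± 0.04 for the latter without replicate 2). Thrombospondin-1, Thbs1, stood at 795 ± 47.5, 2108 ± 18.9 and 834 ± 325 CPM in the 3 groups. It rose in TAZ4A (1.41 ± 0.27, adjusted p = 0.0058) and was lower in TAZ-CAMTA1 than in TAZ4A (-1.43 ± 0.27, adjusted p = 0.0041, and -1.04 ± 0.05 without replicate 2). Against control, the change in TAZ-CAMTA1 was -0.02 ± 0.27, and 0.36 ± 0.05 and called without replicate 2. Osteopontin, Spp1, an arginine-glycine-aspartate ligand of alphav integrins, stood at 145 ± 8.90, 144 ± 1.07 and 296 ± 13.3 CPM and was higher in TAZ-CAMTA1 than in either other group (1.03 ± 0.07 against control, and 1.00 ± 0.05 without replicate 2). Von Willebrand factor, Vwf, an endothelial glycoprotein, stood at 3.05 ± 0.498, 2.09 ± 0.249 and 6.866 ± 1.4983 CPM and rose in TAZ-CAMTA1 (1.04 ± 0.18, and 1.22 ± 0.13 without replicate 2). Tenascin-C, Tnc, a ligand of alpha9beta1, fell there (-0.75 ± 0.21, and -0.46 ± 0.06 without replicate 2).

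Of 53 other adaptor, linker, kinase and regulator genes, 8 rose and 12 fell in TAZ4A against control, 14 rose and 4 fell in TAZ-CAMTA1 against control, and 14 were higher and 6 lower between the constructs. Of all genes tested, 24.9%, 32.1% and 37.9% were called in these comparisons. Filamin C, Flnc, rose in both constructs, from 185 ± 12.4 CPM to 460.4 ± 23.1 and 409.6 ± 72.8 CPM. Sorbs2, an adaptor that binds vinculin, stood at 39.1 ± 3.16, 115 ± 3.75 and 79.9 ± 14.0 CPM, highest in TAZ4A (1.55 ± 0.13). Arhgap26, whose product binds FAK, rose in both, and was highest in TAZ-CAMTA1 (mean 11.8 ± 0.681, 24.4 ± 0.667 and 53.0 ± 12.0 CPM in the 3 groups). The zyxin-binding LIM protein Csrp1 was called lower in TAZ4A and higher in TAZ-CAMTA1 than control, at 374 ± 7.51, 256 ± 8.40 and 511 ± 87.1 CPM. The paxillin relative Hic-5, Tgfb1i1, fell in TAZ4A (-0.65 ± 0.14), as did the adaptor Nck1 (-0.57 ± 0.08). Against control, Rasa1, a Ras GTPase-activating protein, fell in TAZ-CAMTA1 (-0.65 ± 0.18, and -0.42 ± 0.06 without replicate 2), as did Arhgef7, the exchange factor beta-PIX (-0.40 ± 0.13 and -0.24 ± 0.05). Between the constructs Arhgap35 (-0.79 ± 0.23, and -0.48 ± 0.06 without replicate 2) and the actin-binding protein nexilin, Nexn (-0.73 ± 0.15 and -0.56 ± 0.10), were lower in TAZ-CAMTA1. The order of these falls rested on replicate 2. Without it the kinase Pak1, singled out after its values were seen, had a larger fall than Arhgap35 or Nexn (-0.71 ± 0.05, and -0.67 ± 0.06 over all libraries).

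Among 6 other caveola genes, Ehd2, an ATPase at the neck of caveolae, fell in TAZ4A from 393 ± 8.80 to 258 ± 7.23 CPM (-0.60 ± 0.07) and was not called in TAZ-CAMTA1 against control (-0.10 ± 0.07), where it was called lower without replicate 2 (-0.13 ± 0.05). Its relative Ehd4 fell in both constructs (-0.25 ± 0.08 in TAZ4A and -0.74 ± 0.08 in TAZ-CAMTA1, and -0.66 ± 0.04 for the latter without replicate 2). Sdpr, which encodes cavin-2, stood at 119 ± 5.55, 156 ± 2.22 and 74.6 ± 13.8 CPM and fell in TAZ-CAMTA1 (-0.69 ± 0.13, and -0.53 ± 0.05 without replicate 2), where Cav1 rose. Pacsin3, a membrane-bending protein of caveolae, was higher in TAZ-CAMTA1 than in TAZ4A (0.46 ± 0.16, and 0.28 ± 0.08 without replicate 2). Of 3 other integrin subunits tested, Itga2b, the alpha subunit of the platelet fibrinogen receptor, was higher in TAZ-CAMTA1 than in TAZ4A (0.84 ± 0.16, and 0.64 ± 0.10 without replicate 2). It stood at 6.32 ± 0.405, 4.74 ± 0.253 and 9.07 ± 2.41 CPM in the 3 groups. The summed level of 4 platelet or megakaryocyte markers, Itga2b among them, was 8.08 to 9.30 CPM in control, 15.0084 to 15.7 CPM in TAZ4A and 15.4 to 26.2 CPM in TAZ-CAMTA1. These markers did not move alike. Pf4 stood at 0.419 to 0.650, 7.66 to 8.29 and 4.82 to 9.13 CPM in the 3 groups, while Itga2b was lower in TAZ4A than in control, though not called. Gp9 and Gp1bb ranged from 0.407 to 1.80 and from 1.07 to 4.13 CPM over all libraries. The part of platelet-type transcripts in the level of Itga2b was not tested.

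TAZ binds DNA through TEAD proteins, whose sites contain GGAATG. The RefSeq windows from 250 bases before to 50 after a gene's start (GRCm38.p6) cover 27 of the 37 genes, and 5 of these (18.5%) hold GGAATG or its reverse complement CATTCC, beside 16.6% of 27025 genes. By window the shares were 17.6% of 34 and 14.7% of 32851. The stretches upstream of the start are shown with the motif in capitals, on the strand of the gene, for the genes of the 5 that passed the test in a comparison over all libraries.
Itgb1, motif from base -7, chr8:128685627-128685653: cgcggctgacgcggcgcggaGGAATGc
Ptrf, motif from base -247, chr11:100970839-100970867: tcaCATTCCtctgccccagtcccgctgcc
Vcl, Flna and Actn4 were the other genes. Of the 5, Ptrf alone was called in TAZ4A against control over all libraries, where it fell (24.9% of all genes called). None was called in TAZ-CAMTA1 against control (32.1% of all genes). Without replicate 2, Ptrf, Vcl and Actn4 fell and Flna rose in TAZ4A against control (58.7% of all genes called). Itgb1 and Vcl then fell in TAZ-CAMTA1 against control (60.9%). A match of these letters is a description of the window and not a site, and distal elements were not searched.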

How the data were processed

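Poly-A RNA of 9 MS1 libraries was read from deposited tables made by the authors on the mm10 build. Per the submitters' processing notes the tools were bcl2fastq, FastQC, STAR, featureCounts and edgeR; their versions and the use of strand in counting are not given in the sources used here, so reads of a gene and an antisense partner cannot be told apart. The deposited CPM table holds a signal scaled by the authors rather than plain CPM, since its columns sum to 976997 to 1028370. Whole reads could be recovered for 100% of its values (tolerance 0.01 reads). The authors' deposited TPM were used for levels between genes, and the log2 changes and adjusted p-values of the authors' own comparisons only where named. Deposited junction files hold each junction's count of uniquely mapped reads.

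log2(CPM + 0.5) was fitted with limma 3.58.1 in R 4.3.3 (trend and robust, all 9 libraries, Benjamini-Hochberg adjustment over 12350 genes, threshold 0.05). The fit was run on simulated data first. These had the same spread in all libraries and changes in TAZ4A only, so they do not cover a library like TAZ-CAMTA1 replicate 2. The design had assumed CPM. Exon inclusion was the mean of both inclusion junctions over that mean plus the skipping junction, with at least 20 informative reads per library. edgeR 4.0.16 on the recovered reads, other pseudocounts, filters and scalings, and leaving out each library were alternatives. The members and lists were chosen with earlier results of these data known. Members called in a comparison at 5 CPM or more are given library by library. Of the other adhesion genes, up to 2 per class, comparison and direction with the largest called change and at least 5 CPM in the higher group were named. Floors cover counting error only, while the ± values, standard errors or SDs, measure the spread between libraries.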

Additional observations from a re-analysis of the deposited data

How the results depend on the processing

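The number of the 35 genes called depended on TAZ-CAMTA1 replicate 2 and on the error estimate. In TAZ4A against control (16 called), deposited TPM gave 9, the 6 libraries compared alone 25, library quality weights 25 and edgeR without replicate 2, an alternative chosen after seeing the data, 25. In TAZ-CAMTA1 against control (12 called), the 6 libraries alone gave 7, quality weights 26, TPM without replicate 2 (also chosen after seeing the data) 20 and edgeR without it 23. Between the constructs (16 called), quality weights gave 28 and edgeR without replicate 2 gave 28. Leaving out 1 library at a time gave 7 to 25, 7 to 26 and 14 to 28 calls. The share of all genes called was 24.9%, 32.1% and 37.9% in the 3 comparisons, and 60.2%, 58.7% and 67.0% with quality weights. On deposited TPM it was 21.2% in TAZ4A against control. With the 6 libraries alone it was 59.1% in TAZ4A against control, 27.0% between the constructs, and 1431 genes higher and 993 lower in TAZ-CAMTA1 against control. It was 52.9%, 55.0% and 58.5% on TPM without replicate 2. By edgeR without replicate 2 it was 58.8% in TAZ4A against control, 62.8% between the constructs, and 3735 genes higher and 3616 lower in TAZ-CAMTA1 against control. The share was 15.8% to 58.7%, 21.2% to 60.9% and 25.2% to 63.0% with 1 library left out. Vcl between the constructs (-0.28 to 0.13 with 1 library left out) turned from -0.14 to 0.12 with quality weights, 0.13 without replicate 2 and 0.14 by edgeR without it, and Lims1 (-0.17 to 0.16) from -0.06 to 0.17, 0.16 and 0.18. With at least 50 informative reads, 1 cassette exon in place of 2 had groups apart in TAZ4A against control, since fewer exons were left. For the others the cause was not tested. Equal library sums moved the split of all genes in TAZ4A against control from 1630 higher and 1447 lower to 1967 and 1106. TPM moved the median of all genes between the constructs from -0.02 to -0.126. The labels do not say what a replicate number marks, and not every same-numbered pair deviated together. The correlation of deviations was over 0.1 in 6 of 9 such pairs, those of replicates 2 and 3, but -0.12 to 0.064 in the pairs of replicate 1, and control replicate 3 correlated better with TAZ-CAMTA1 replicate 1 (0.563) than with replicate 3 (0.395). The libraries were therefore not treated as paired. A fit with the replicate block called 15, 13 and 17 genes (23.4%, 31.4% and 37.4% of all genes). The call of Pxn in TAZ4A against control was lost (adjusted p = 0.052 by limma), and Itgav in TAZ-CAMTA1 against control (0.046) and Tns3 between the constructs (0.038) were added.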
